A study of Mus musculus with 24 samples.

Results

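The genes examined here encode the proteins of the mitochondrial ribosome, the particle that translates the few messages made inside mitochondria. Members were chosen by symbol, as genes named Mrpl or Mrps followed by a digit, without pseudogenes, that reached at least 1 TPM in at least 3 of the 24 libraries. TPM, transcripts per 1000000, is a share of the RNA of a library that takes transcript length into account. The rule gave 78 members of the 24972 gene symbols in the table, 49 named Mrpl and 29 named Mrps, and all 78 were among the 13058 genes that passed the same TPM minimum and were tested. The study sequenced messenger RNA from the left ventricular free wall of C57Bl6/J mice, as 8 groups of 3 libraries. Per the titles these were, in males and in females, metabolo-hypertensive stress (MHS) at day 28, control at day 28, MHS followed by left ventricle reverse remodeling (MHS_RR) at day 56, and control at day 56. The treatment tag attached to the MHS_RR libraries, AngII + HFD, names angiotensin II, a peptide that raises blood pressure, with a high-fat diet, whereas the day 28 controls are tagged as untreated. The time and treatment tags contradict the titles for 12 libraries, because those titled MHS at day 28 are tagged 56 days with no treatment and those titled control at day 56 are tagged 28 days with AngII + HFD. Groups follow the titles and the group tag, and results under the time and treatment tags are given beside the comparisons they change. The labels give neither the age of the mice nor whether a library is 1 mouse, and they do not describe how reverse remodeling was brought about.

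The mitochondrial ribosome is built from a small subunit, which decodes the message, and a large subunit, which joins amino acids into protein and releases the new chain through an exit tunnel next to the inner membrane. Its RNA is transcribed from the mitochondrial genome, while all of its proteins are encoded in the nucleus, made in the cytosol and imported. Some of these proteins descend from bacterial ribosomal proteins and others are found only in mitochondria. The products of this ribosome in mammals are core subunits of the respiratory chain and of ATP synthase, on which the beating heart depends. Mrps36 carries the symbol of a small subunit protein but is now known as a part of the oxoglutarate dehydrogenase complex, and the products of Mrps30 and Mrps18a sit in the large subunit.

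The promoters of these genes are known to carry sites for NRF1, for ETS family factors such as GABP, and for YY1. RefSeq promoter entries (build GRCm38.p6) matched 69 of the 78 members. Letters were searched on both strands in the 250 bases before the gene start, and none of the 4 motifs is contained in another. The NRF1 letters GCGCANGCG were in 18.8% of the members' promoters, against 12.4% of those of 10200 tested genes, and the ETS letters CCGGAAG in 26.1%, against 15.3%. The E-box CACGTG was in 7.25% of member promoters, against 9.87%. The YY1 letters AANATGGCG were in 2.90% of member promoters, against 2.46%, and when the 50 bases after the start were added they were in 15.9%, against 5.82%. The 120 bases before the start are shown for 6 members on which the comparisons below turn, with NRF1 or ETS letters in capitals. Mrpl45 (chr11:97315596-97315715 (+ strand)) holds 2 NRF1 matches, Mrpl34 (chr8:71464806-71464925 (+ strand)), Mrpl58 (chr11:115403632-115403751 (+ strand)) and Mrpl3 (chr9:105053148-105053267 (+ strand)) hold 1 ETS match each, and Mrps15 (chr4:126046808-126046927 (+ strand)) and Mrpl39 (chr16:84735245-84735364 (- strand)) hold no match to these letters in this window.
Mrpl45: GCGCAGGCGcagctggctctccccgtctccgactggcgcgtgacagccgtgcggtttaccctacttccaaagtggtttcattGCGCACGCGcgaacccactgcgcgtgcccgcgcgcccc
Mrpl34: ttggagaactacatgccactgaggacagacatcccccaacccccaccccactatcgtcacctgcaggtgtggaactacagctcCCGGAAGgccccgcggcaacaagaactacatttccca
Mrpl58: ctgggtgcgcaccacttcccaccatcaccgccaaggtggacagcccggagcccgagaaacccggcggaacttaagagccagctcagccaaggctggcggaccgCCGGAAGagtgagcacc
Mrpl3: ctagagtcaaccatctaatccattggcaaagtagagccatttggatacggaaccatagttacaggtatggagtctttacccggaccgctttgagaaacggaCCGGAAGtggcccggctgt
Mrps15: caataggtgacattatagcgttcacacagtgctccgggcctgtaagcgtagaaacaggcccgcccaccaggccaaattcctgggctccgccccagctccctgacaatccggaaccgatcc
Mrpl39: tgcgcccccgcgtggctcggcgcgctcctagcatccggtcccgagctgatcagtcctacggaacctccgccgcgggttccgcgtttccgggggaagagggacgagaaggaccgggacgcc
The matches are described as letters only, since binding was not measured, and genes that were higher and genes that were lower both stand among the ETS matches.

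Each library summed to 1e+06 TPM, so its sequencing depth is unknown, and each had between 12168 and 12585 genes at 1 TPM or more. The ventricular genes Myh6 and Myl2 were high in every library, at 9195 to 13660.4 TPM and 24559.9 to 38898 TPM. Members had shorter transcripts than tested genes, with medians of 1051.5 and 2098 bases. A few libraries stood apart. Myl7, an atrial light chain gene, reached 625 TPM in female control day 28 replicate 2. It had 124.75 TPM in female MHS replicate 3 and 57.3 TPM in male MHS_RR replicate 1. Y-linked genes in female MHS_RR replicate 3 came to 26.1% of the mean of the males. Among male libraries they ran from 42.8% in control day 56 replicate 1 to 135.5% in control day 28 replicate 3. Each library was also described by the deviation of its genes from their mean over all 24 libraries, which includes differences between groups. Transcript length and GC content accounted for 29.9% of this deviation in male control day 56 replicate 1, for 27.03% in male control day 28 replicate 1 and for 19.4% in male MHS_RR replicate 2. Results were recomputed without these 3 libraries. No pair of libraries held identical values. The labels do not say that replicates were separate mice, so the p-values speak only of the spread among these samples, which may be technical.

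All 78 members were detected in left ventricle, at levels that differed widely between members. The most abundant was Mrpl42, at a mean of 1067 TPM over the 24 libraries (lowest 939.6, highest 1186 TPM), followed by Mrps21 at 468, Mrpl30 at 413, Mrpl12 at 399 and Mrps36 at 301 TPM. Mrps21 belongs to the small subunit, Mrpl12 forms the flexible stalk that recruits translation factors, and Mrpl42 and Mrpl30 are large subunit proteins. The lowest were Mrps25 at 10.9, Mrpl17 at 13.2, Mrpl19 at 14.3, Mrpl57 at 21.4 and Mrpl48 at 22.97 TPM. Between these ends 54 of the 78 members lay between 50 and 200 TPM. The median of the members' means was 93.1 TPM over the 51 proteins of the large subunit and 76.003 TPM over the 26 of the small subunit. TPM takes transcript length into account, but whether an effect of length or GC content remained in these levels was not tested. The ranking between genes is therefore a description.

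**Figure D1:**
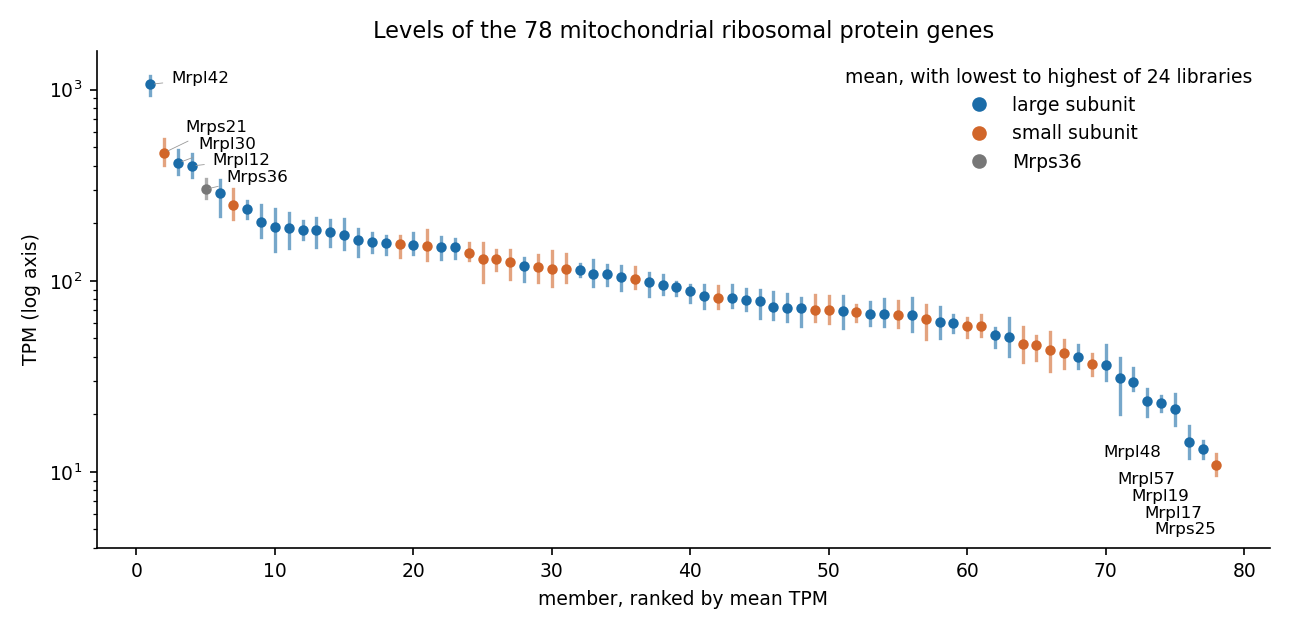
Mean TPM (log axis) of each of the 78 members over all 24 libraries, ranked from highest to lowest, with bars from the lowest to the highest library; large subunit, small subunit and Mrps36 are colored apart. Mrpl42 at 1067 TPM stands above all others, and 54 members lie between 50 and 200 TPM.

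Members varied little between replicates. The SD within a group on the log2(TPM + 1) scale had a median of 0.08 over members, against 0.15 over all tested genes and 0.12 over the 7238 genes whose mean TPM lay in the range of the members. It was lowest for Mrpl51 (0.05) and highest for Mrpl1 (0.22). The range of the 8 group means had a median of 0.24 for members and 0.37 for all tested genes, and was largest for Mrps34 (0.47), Mrps18b (0.46), Mrpl1 (0.43), Mrpl34 (0.43), Mrps23 (0.40) and Mrpl39 (0.36). Summed over members, male MHS libraries held 9686 ± 132 TPM, against 9998 ± 436 TPM in male controls at day 28, and female MHS libraries 9582 ± 273 TPM, against 9499.8 ± 174 TPM in female controls (SD, n = 3 each). The sum was 10619 ± 477 TPM in male MHS_RR libraries, against 10028 ± 135 TPM in male controls at day 56, and 10194 ± 323 TPM in female MHS_RR libraries, against 9635 ± 221 TPM in female controls. The highest sum of any library, 11169.7 TPM, was that of male MHS_RR replicate 2.

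Comparing MHS with control hearts at day 28 asks which genes differ under the stress. A gene was called where limma's moderated test gave an adjusted p under 0.05 (Benjamini-Hochberg over all 13058 genes, two-sided), and fold changes are differences of log2(TPM + 1) with the standard error. In males 6 of the 78 members were called, 2 higher and 4 lower, while 10.2% of all tested genes were called, 7.71% higher and 2.52% lower. The 4 that fell were Mrpl58, Mrps35, Mrps15 and Mrpl39, and the 2 that rose were Mrps34 and Mrps18b. Mrpl58, also known as ICT1, is a peptidyl-tRNA hydrolase that frees stalled ribosomes and is built into the large subunit. It had 86.2, 83.6 and 90.5 TPM in MHS males, against 99.8, 103 and 109 TPM in control males. The groups did not overlap, and the log2 fold change was -0.26 ± 0.07, adjusted p = 0.0197. Mrps15, the counterpart of bacterial S15, binds the small subunit RNA. It had 115, 107 and 113 TPM in MHS males, against 133, 131 and 131 TPM in control males, again apart (-0.24 ± 0.07, adjusted p = 0.0229). Mrps35 stood at 144, 133 and 138 TPM, against 167, 161 and 158 TPM (-0.23 ± 0.06, adjusted p = 0.0207). Mrpl39, which lies near the tunnel exit and is specific to mitochondria, had 63.9, 56.3 and 62.02 TPM in MHS males, against 71.2, 67.2 and 75.2 TPM in control males (-0.23 ± 0.07, adjusted p = 0.0496). In both genes every MHS library was below every control library. Overlap of groups, here and below, is described from the values that the test used and adds no support to a call. The share of all genes whose groups did not overlap was not taken.

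Mrps34, needed in mice for a stable small subunit, had 139, 153 and 142 TPM in MHS males, against 126, 130.4 and 113 TPM in control males (0.23 ± 0.06, adjusted p = 0.0207). Mrps18b had 65.1, 72.2 and 72.5 TPM, against 64.5, 54.5 and 57.5 TPM (0.25 ± 0.07, adjusted p = 0.0209). For both the highest control library was below the lowest MHS library. Just outside the threshold, Mrpl23 came to -0.26 ± 0.08, adjusted p = 0.0501 and Mrpl14, which docks the assembly factor Malsu1, to -0.26 ± 0.09, adjusted p = 0.0652, and neither was called. The median log2 fold change was -0.03 over members and 0.08 over all genes, and 28 members were above 0 and 50 below. An unadjusted p under 0.05 was found for 21 of the 78 members and for 3141 of all 13058 genes. Such counts were not compared by a test, here or below, and are not read as particular to the members. The calls in males were not stable to single libraries, since none of the 6 was called under every omission of 1 library, and the count fell to 0 without male MHS replicate 2, to 1 without male MHS replicate 3 or male control day 28 replicate 2, and to 3 without male control day 28 replicate 1. A fit of the compared groups alone called 0. With groups set by the time and treatment tags 0 members and 0% of all genes were called. Those groups are the libraries titled control at day 56 and at day 28, so this is a different comparison. The split by direction rests on the scaling, since median-of-ratios scaling gave 0 higher and 6 lower (5.18% and 4.09% of all genes) and quantile scaling 0 higher and 12 lower (4.69% and 4.91%), so the calls of Mrps34 and Mrps18b in males were lost under both.

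In females 5 members were called, 3 higher and 2 lower, while 5.76% of all genes were called, 3.4% higher and 2.36% lower. Mrpl34, a small protein of the large subunit, rose most, with 214, 192 and 216 TPM in MHS females, against 169, 143 and 169 TPM in control females (0.37 ± 0.08, adjusted p = 0.00653). It was the only member called under every omission of 1 library. Mrpl13 had 179, 167 and 168 TPM, against 150.1, 142 and 149.98 TPM (0.22 ± 0.06, adjusted p = 0.0364), and Mrps18b 60.98, 64.2 and 62.8 TPM, against 52.9, 49.8 and 57.7 TPM (0.23 ± 0.07, adjusted p = 0.0477). In all 3 genes the MHS libraries lay above the control libraries. Mrpl39 fell to 57.1, 62.7 and 64.04 TPM in MHS females, against 71.96, 77.5 and 76.6 TPM in control females (-0.29 ± 0.07, adjusted p = 0.0174). Mrps15 had 114, 102 and 105 TPM, against 123, 127 and 127 TPM (-0.23 ± 0.07, adjusted p = 0.0425). Both sets of libraries were apart. Mrpl57, Mrpl58 and Mrps28 were the nearest members not called (0.23, -0.20 and -0.20, adjusted p = 0.0788, 0.101 and 0.104). The median was 0.00 over members and 0.00 over all genes. At an unadjusted p under 0.05 were 17 members and 2391 of all 13058 genes. Without 1 library between 1 and 5 members were called. The count was 1 without female control day 28 replicate 2. It was 2 without replicate 1 or 3 of those controls or without female MHS replicate 1 or 2. It was 3 without male MHS replicate 3 or male MHS_RR replicate 1, which enter through the shared spread. The time and treatment tags, which here too compare the libraries titled control of both days, gave 0 members and 0% of all genes. In females median-of-ratios scaling gave 1 higher and 0 lower (3.55% and 2.4% of all genes) and quantile scaling 1 higher and 2 lower (3.25% and 3.15%).

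Averaged over the sexes, 16 members were called, 7 higher and 9 lower, while 17.8% of all genes were called, 11.6% higher and 6.24% lower. The genes that fell were Mrpl39 (-0.26 ± 0.05, adjusted p = 0.0011), Mrpl23, another tunnel-exit protein (-0.24 ± 0.06, adjusted p = 0.00606), Mrps15 (-0.23 ± 0.05, adjusted p = 0.00122), Mrpl58 (-0.23 ± 0.05, adjusted p = 0.00224), Mrps28 (-0.19 ± 0.05, adjusted p = 0.00945), Mrps35 (-0.19 ± 0.04, adjusted p = 0.00455), Mrps30 (-0.15 ± 0.04, adjusted p = 0.0221), Mrpl9 (-0.14 ± 0.04, adjusted p = 0.0146) and Mrps31 (-0.12 ± 0.04, adjusted p = 0.0443). The genes that rose were Mrpl34 (0.27 ± 0.06, adjusted p = 0.0016), Mrps18b (0.24 ± 0.05, adjusted p = 0.00124), Mrps34 (0.21 ± 0.04, adjusted p = 0.00243), Mrpl43 (0.17 ± 0.05, adjusted p = 0.0121), Mrpl57 (0.17 ± 0.05, adjusted p = 0.0314), Mrps23 (0.15 ± 0.04, adjusted p = 0.0101) and Mrpl13 (0.12 ± 0.04, adjusted p = 0.0462). Of the 78 members 28 had an unadjusted p under 0.05, as had 3769 of all 13058 genes. The member median was -0.01, against 0.04 over all genes. Mrpl23 averaged 160.3 ± 10.6 TPM in MHS males and 192 ± 11.4 TPM in control males, and 174 ± 2.34 TPM in MHS females and 204 ± 19.7 TPM in control females (SD, n = 3 each). Mrps23 averaged 271 ± 3.93 TPM in MHS males and 243 ± 10.2 TPM in control males, and 242 ± 14.5 TPM in MHS females and 218 ± 7.92 TPM in control females. Among the 5 most abundant members none was called under MHS, with log2 fold changes in males and in females of -0.14 and -0.06 for Mrpl42, -0.18 and -0.05 for Mrps21, -0.12 and -0.02 for Mrpl30, -0.0004 and 0.10 for Mrpl12, and -0.03 and 0.08 for Mrps36. Of the 16 calls 12 remained under every omission of 1 library, and those lost at least once were Mrpl13, Mrpl57, Mrps30 and Mrps31, with adjusted p up to 0.12 without male control day 28 replicate 3 or female control day 28 replicate 3. The split by direction rests on the scaling, since median-of-ratios scaling gave 2 higher and 10 lower (9.81% and 8.05% of all genes) and quantile scaling 3 higher and 12 lower (8.75% and 9.76%). Under the time and treatment tags, which compare the libraries titled control of both days, 0 were called.

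**Figure D2:**
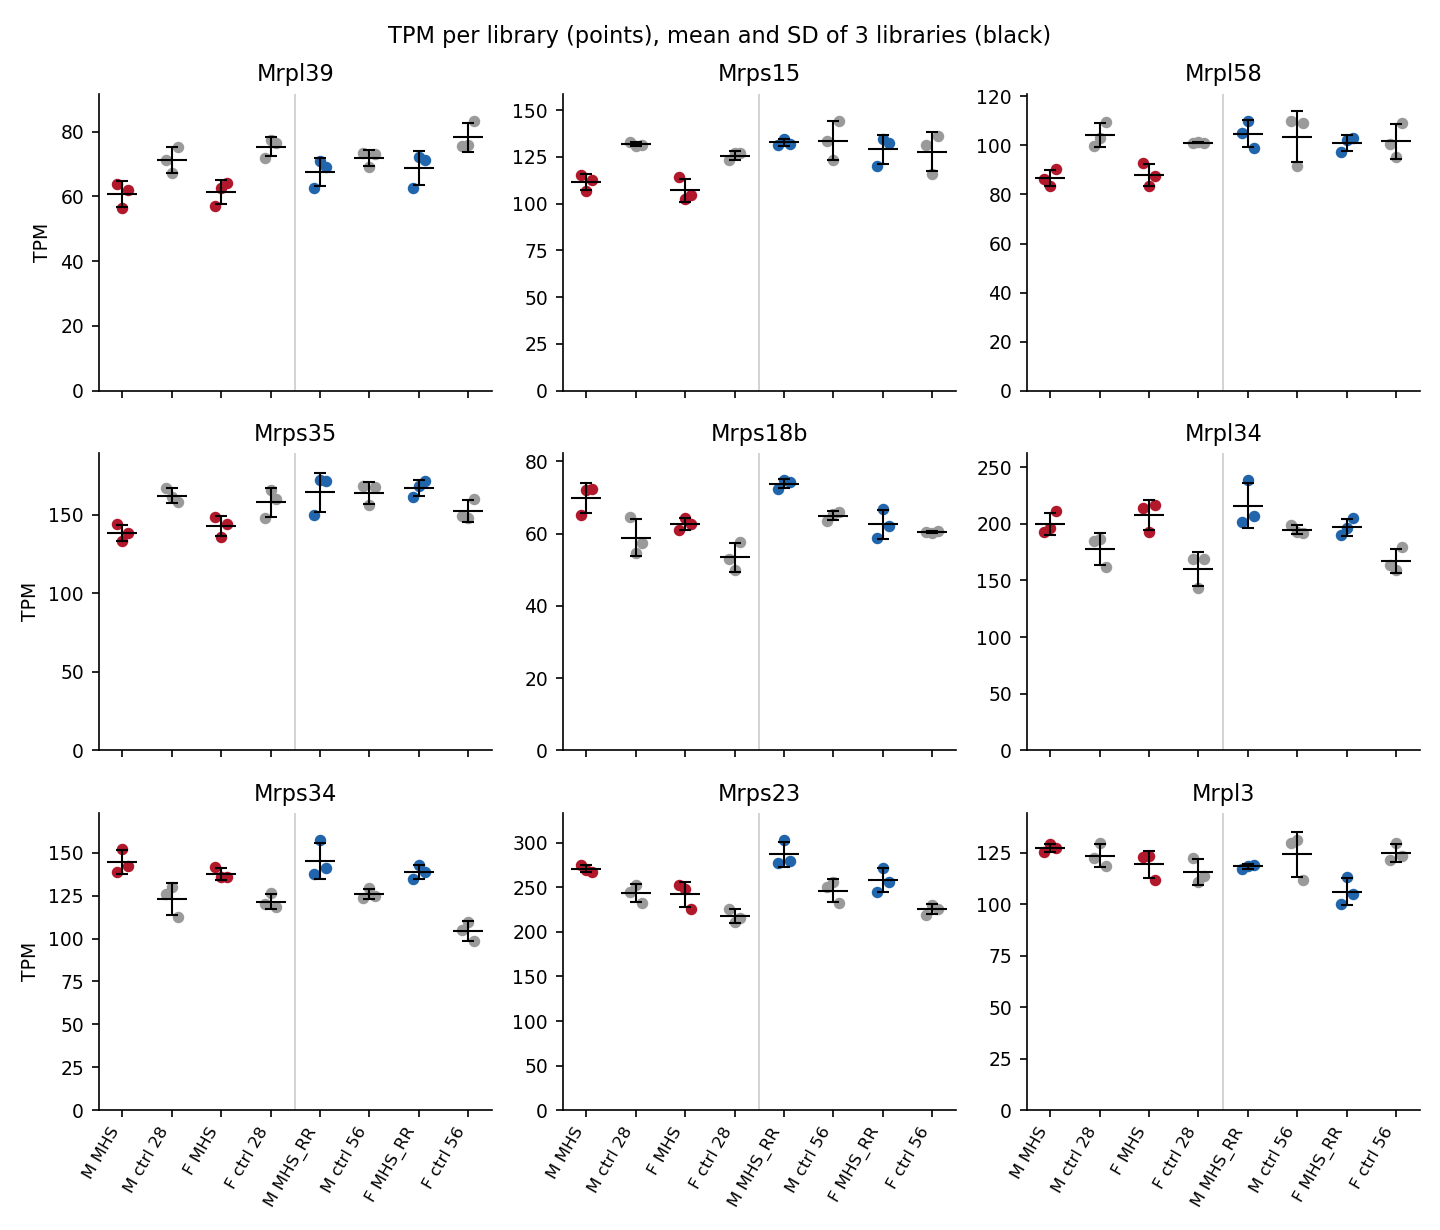
TPM of 9 members in each library (points) with the mean and SD of 3 libraries (black), for males (M) and females (F); the MHS and MHS_RR groups stand left of the control group of their sex and day (ctrl 28, ctrl 56). Mrpl39, Mrps15 and Mrpl58 lie lower in every MHS library than in any control library of day 28 and that sex, Mrps34 lies higher in MHS_RR than in control libraries, and Mrpl3 averaged 106 TPM in MHS_RR females and 125 TPM in control females.

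Markers of some cells in the wall moved with MHS as well. In bulk tissue fewer cells of a type and less RNA per cell cannot be told apart. Of 8 ventricular cardiomyocyte genes 4 were lower (Tnni3, Myl2, Tnnt2 and Myl3) and 0 higher in the mean of the sexes, and their summed level was 83870.4 to 86061 TPM in MHS males, against 97672 to 102227 TPM in control males, and 84789.5 to 91460.1 TPM in MHS females, against 99098.6 to 104450 TPM in control females. Of 7 fibroblast genes 4 were higher, with sums of 1161 to 1302 TPM in MHS males, against 754 to 872 TPM in control males, and 1075 to 1521 TPM in MHS females, against 872 to 1092 TPM in control females. Of 4 tested atrial cardiomyocyte genes 1 was higher (Nppa), with sums of the atrial list of 411 to 1353 TPM in MHS males, against 261 to 371 TPM in control males, and 781 to 3347 TPM in MHS females, against 283 to 1734 TPM in control females. In MHS males replicates 1 to 3, Myl7 had 8.10, 0 and 1.61 TPM and Sln, also on this list, 0.77, 0 and 0.43 TPM. In MHS females replicates 1 to 3, Myl7 had 1.01, 0.56 and 124.75 TPM and Sln 0.17, 0 and 24.2 TPM. The atrial sums are therefore not read as a shift of the whole list. Of 4 mural genes 1 was higher (Acta2), with sums of 639 to 656 TPM in MHS males, against 356 to 611 TPM in control males, and 584 to 752 TPM in MHS females, against 447 to 607 TPM in control females. The fibroblast, atrial and mural sums were apart in males and overlapped in females. Of 7 macrophage genes 1 was higher (Cd68), and none of 5 endothelial or 3 erythroid genes was called. The part of these shifts in the member values was not tested.

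By role, the calls under MHS in the mean of the sexes fell in both subunits and in both classes of protein. Among 30 large subunit proteins with a bacterial counterpart 2 were higher (Mrpl34 and Mrpl13) and 2 lower (Mrpl23 and Mrpl9). Among 21 large subunit proteins specific to mitochondria 2 were higher (Mrpl43 and Mrpl57) and 3 lower (Mrpl39, Mrpl58 and Mrps30). Of 16 small subunit proteins with a bacterial counterpart 0 were higher and 2 were lower (Mrps15 and Mrps28), and of 10 specific to mitochondria 3 were higher (Mrps34, Mrps18b and Mrps23) and 2 lower (Mrps35 and Mrps31). Sites of the large subunit were followed. Of 8 proteins around the tunnel exit Mrpl39 and Mrpl23 were lower and none was higher. Mrpl45, which anchors the ribosome to the inner membrane, had 0.01 ± 0.06, adjusted p = 0.929. None of the 7 proteins of the central protuberance or of the 3 of the stalk was called.

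The effects of MHS in the 2 sexes were compared by their difference, female minus male. No member was called by limma, while 0.00766% of all genes were. At an unadjusted p under 0.05 were 2 members and 564 of all 13058 genes. The 2 members were Mrps25 (0.24) and Mrpl13 (0.18), both at adjusted p = 0.964. The other fits of this difference called 0 members too, so members called in a single sex are not shown to differ between the sexes. Across the 78 members the effects in females and in males had a Pearson r of 0.69, against 0.65 over all tested genes, as a description across genes that share libraries. Of the members 22 were above 0 in both sexes, 31 below 0 in both and 25 of opposite sign, and 3 were called in both, which is 3 of 5 in females and 3 of 6 in males (Mrpl39, Mrps15 and Mrps18b).

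The MHS_RR libraries were compared with controls at day 56, to see how hearts after reverse remodeling stood against control hearts of the same day. In males 0 members were called, while 0.0919% of all genes were called, 0.00766% higher and 0.0842% lower. Of all 13058 genes 2345 had an unadjusted p under 0.05, and so did 12 members. The smallest p was that of Mrps23, a small subunit protein specific to mitochondria, with 278, 303 and 280.1 TPM in MHS_RR males, against 250.4, 257 and 232 TPM in control males (0.22 ± 0.06, adjusted p = 0.0737). Its groups did not overlap, but it was not called. Next came Mrps34 (0.20 ± 0.06, adjusted p = 0.12), Mrps18b (0.18), Mrps18c (0.26), Mrpl43 (0.17), Mrps26 (0.27), Mrpl51 (0.13) and Mrpl22 (0.20), none called. The median over members was 0.08, against -0.04 over all genes, and 63 members were above 0. The count depended on the fit, with 2 members called with a replicate block and 20 where libraries were weighted by their agreement with the group. For the block and the weights no share of all genes is given, so those counts are not read as particular to the members. The time and treatment tags turn this into MHS_RR against the libraries titled MHS, which is not another fit of the same comparison. There 14 members were called, all higher (3.38% of all genes higher and 16.2% lower).

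In females 6 members were called, 5 higher and 1 lower, while 5.11% of all genes were called, 0.544% higher and 4.56% lower. Mrps34 rose most, with 135, 143 and 139 TPM in MHS_RR females, against 105, 109.9 and 98.7 TPM in control females (0.41 ± 0.06, adjusted p = 0.00186), and it remained called under every omission of 1 library. Mrpl45, the membrane anchor, had 67.2, 72.4 and 66.2 TPM, against 55.6, 53.6 and 53.8 TPM (0.33 ± 0.08, adjusted p = 0.0214). Mrpl47, its neighbour at the tunnel exit, had 53.1, 56.8 and 64.2 TPM, against 44.8, 46.5 and 43.3 TPM (0.36 ± 0.09, adjusted p = 0.0274). In these 3 genes the lowest MHS_RR library was above the highest control library. Mrpl18, which lies in the central protuberance, had 257, 260.004 and 263 TPM, against 226, 215 and 217 TPM (0.24 ± 0.06, adjusted p = 0.0224). Mrpl51 had 189, 199.8 and 196 TPM, against 166, 181 and 167 TPM (0.19 ± 0.05, adjusted p = 0.0384). Both sets were apart, for Mrpl51 by a small gap. Mrpl3, a protein near the peptidyl-transferase centre, was the only member that fell in this fit, with 100.2, 113 and 105 TPM in MHS_RR females, against 121, 129.7 and 123 TPM in control females (-0.23 ± 0.06, adjusted p = 0.0415). Mrps23 (0.19 ± 0.06, adjusted p = 0.0513) and Mrpl43 (0.22 ± 0.06, adjusted p = 0.0536) came next and were not called. The median was 0.07 over members and -0.09 over all genes. After GC and length correction the member median in females was lower and fewer members were called, with values in the closing section. At an unadjusted p under 0.05 were 18 members and 2981 of all 13058 genes. Omitting 1 library gave 1 to 9 calls, with 1 call without female MHS_RR replicate 2 or female control day 56 replicate 3 and 2 without MHS_RR replicate 3 or control day 56 replicate 2, and a fit of the compared groups alone gave 1. Median-of-ratios scaling gave 7 higher and 0 lower (0.796% and 1.48% of all genes) and quantile scaling 6 higher and 0 lower (0.544% and 1.28%), so the call of Mrpl3 was lost under both (-0.13 and -0.19, adjusted p = 0.401 and 0.161).

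Averaged over the sexes, 14 members were called, 13 higher and 1 lower, while 17.6% of all genes were called, 2.11% higher and 15.5% lower. The members that rose were Mrps34 (0.30 ± 0.04, adjusted p = 0.000606), Mrpl47 (0.27 ± 0.06, adjusted p = 0.00871), Mrps16 (0.23 ± 0.07, adjusted p = 0.0395), Mrpl45 (0.22 ± 0.06, adjusted p = 0.0105), Mrpl52 (0.21 ± 0.06, adjusted p = 0.0222), Mrps23 (0.21 ± 0.04, adjusted p = 0.00255), Mrpl43 (0.19 ± 0.05, adjusted p = 0.00759), Mrpl19 (0.19 ± 0.06, adjusted p = 0.0254), Mrpl34 (0.19 ± 0.06, adjusted p = 0.0236), Mrpl54 (0.18 ± 0.05, adjusted p = 0.022), Mrpl51 (0.16 ± 0.04, adjusted p = 0.00666), Mrpl12 (0.14 ± 0.05, adjusted p = 0.0411) and Mrpl18 (0.14 ± 0.04, adjusted p = 0.0255), and Mrpl3 fell (-0.15 ± 0.05, adjusted p = 0.0298). Mrps34 averaged 145 ± 10.7 TPM in MHS_RR males and 126 ± 3.14 TPM in control males, and 139 ± 4.07 TPM in MHS_RR females and 104 ± 5.61 TPM in control females (SD, n = 3 each). Mrpl47 averaged 57.9 ± 4.82 TPM in MHS_RR males and 51.1 ± 1.84 TPM in control males, and 58.02 ± 5.63 TPM in MHS_RR females and 44.9 ± 1.64 TPM in control females. Of all members 66 were above 0 and 12 below, and the median was 0.07, against -0.06 over all genes. An unadjusted p under 0.05 was found for 26 members and for 4223 of all 13058 genes. Of the 5 most abundant members Mrpl12 was called, and Mrpl42 (0.04), Mrps21 (0.05), Mrpl30 (0.07) and Mrps36 (-0.02) were not. Without the 3 libraries whose values moved with GC content and length 3 members were called (Mrps34, Mrps23 and Mrpl45), with 0.773% of all genes higher and 4.53% lower, and after a correction for both 7 were, all higher, with 1.6% and 10.4% of all genes. Mrpl43, Mrpl45, Mrpl47, Mrpl51, Mrps23 and Mrps34 remained called under every omission of 1 library, while the count fell to 6 without male MHS_RR replicate 2, to 8 without female MHS_RR replicate 2 or female control day 56 replicate 3, and to 9 without female MHS_RR replicate 3 or female control day 56 replicate 2, and median-of-ratios scaling gave 20 higher and 0 lower (4.89% and 7.0% of all genes). Quantile scaling gave 14 higher and 0 lower, without Mrpl3 as well. The time and treatment tags, which set MHS_RR against the libraries titled MHS, gave 29 higher and 1 lower (6.07% and 26.7% of all genes).

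Several macrophage, endothelial, fibroblast and erythroid genes were lower in MHS_RR hearts, while no atrial gene was called and 1 of 4 mural genes was lower. Of 7 macrophage genes 5 were lower in the mean of the sexes, with sums of 189.8 to 243 TPM in MHS_RR males, against 247 to 338 TPM in control males, and 184 to 214 TPM in MHS_RR females, against 216 to 282 TPM in control females. Of 5 endothelial genes 3 were lower, with sums of 447 to 501 TPM in MHS_RR males, against 508 to 571 TPM in control males, and 415 to 471 TPM in MHS_RR females, against 515 to 627 TPM in control females. Of 7 fibroblast genes 4 were lower, with sums of 739 to 994 TPM in MHS_RR males, against 840 to 982 TPM in control males, and 771 to 969.6 TPM in MHS_RR females, against 913 to 1049.9 TPM in control females. All of the 3 erythroid genes were lower, with sums of 3529 to 4089 TPM in MHS_RR males, against 4016 to 6313 TPM in control males, and 2735 to 4137 TPM in MHS_RR females, against 3759 to 5098 TPM in control females. The ventricular cardiomyocyte sums overlapped, at 96963 to 101386 TPM in MHS_RR males, against 96133 to 105394 TPM in control males, and 98958 to 106335 TPM in MHS_RR females, against 97731 to 101234 TPM in control females, with 1 of 8 genes lower (Ryr2). None of 4 tested atrial cardiomyocyte genes was called, and the sums of the atrial list were 305 to 749.8 TPM in MHS_RR males, against 182 to 438 TPM in control males, and 321 to 473 TPM in MHS_RR females, against 228 to 429 TPM in control females. Of 4 mural genes 1 was lower (Pdgfrb), with sums of 509 to 625 TPM in MHS_RR males, against 318 to 564 TPM in control males, and 475 to 572 TPM in MHS_RR females, against 541 to 616 TPM in control females. The atrial, mural, fibroblast and erythroid sums overlapped those of controls in both sexes. The part of these shifts in the member values was not tested.

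By role, the members called in MHS_RR hearts were 5 higher and 1 lower of the 30 large subunit proteins with a bacterial counterpart, 5 higher of the 21 specific to mitochondria, 1 higher (Mrps16) of the 16 small subunit proteins with a bacterial counterpart and 2 higher (Mrps34 and Mrps23) of the 10 specific to mitochondria. Mrpl47 and Mrpl45 rose among the 8 tunnel-exit proteins. Mrpl39, lower under MHS, had -0.14 ± 0.05, adjusted p = 0.0639, and Mrpl23 0.04 ± 0.06, adjusted p = 0.654, neither called. In the stalk Mrpl12 rose and Mrpl10 and Mrpl11, which form its base, had -0.07 and 0.09. Mrpl18 was the only protein of the central protuberance that was called, and all 7 there were above 0. The female minus male difference of the MHS_RR effect gave 0 called members and 0% of all genes by limma. The other fits called 0 members too. At an unadjusted p under 0.05 were 3 members (Mrpl57 -0.27, Mrpl18 0.21 and Mrps34 0.20) and 459 of all 13058 genes. Across members the effects in females and males had r = 0.52, against 0.55 over all tested genes, with 49 members above 0 in both sexes, 10 below in both and 19 of opposite sign.

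**Figure D3:**
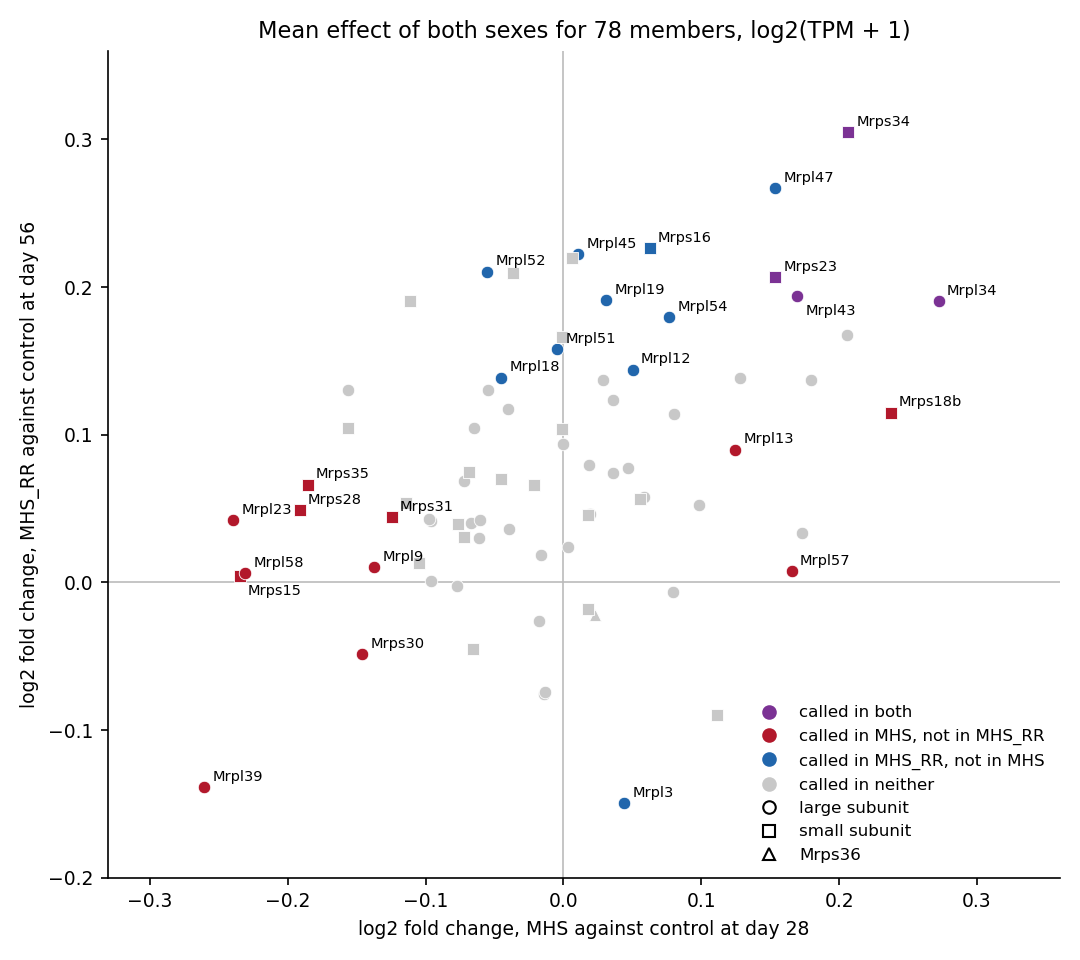
Log2 fold change of each member (log2(TPM + 1), mean of both sexes) under MHS at day 28 (horizontal) and under MHS_RR at day 56 (vertical), each against the controls of its day; colors show where a member was called and symbols its subunit. Mrps34, Mrps23, Mrpl43 and Mrpl34 were called higher in both, 36 members lie below 0 under MHS and above 0 under MHS_RR, and Mrpl3 lies at -0.15 under MHS_RR. The MHS calls of Mrps34, Mrps23 and Mrpl43 were lost under median-of-ratios scaling.

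The effects of MHS and MHS_RR, measured against separate controls, were set against each other. Mrps34, Mrps23, Mrpl43 and Mrpl34 were called higher in both, which is 4 of 14 for MHS_RR and 4 of 16 for MHS. Of these, only Mrpl34 kept its MHS call under median-of-ratios scaling, where 2 members were called higher. The MHS calls of Mrps34, Mrps23 and Mrpl43 therefore rest on the scaling. Of the 78 members 30 were above 0 in both, 7 below in both, 36 above under MHS_RR and below under MHS, and 5 the reverse, and r was 0.39 across members, against 0.10 over all tested genes. The difference of the effects, MHS_RR minus MHS, was tested directly. In its mean over the sexes 11 members were called, 10 higher and 1 lower, while 19.4% of all genes were called, 2.79% higher and 16.6% lower. A higher value means that the gene stood higher against its own controls in MHS_RR than in MHS hearts.

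Those with a higher difference were Mrps18c (0.30 ± 0.10, adjusted p = 0.0328), Mrpl14 (0.29 ± 0.09, adjusted p = 0.0288), Mrpl23 (0.28 ± 0.08, adjusted p = 0.0211), Mrpl52 (0.27 ± 0.09, adjusted p = 0.0348), Mrps35 (0.25 ± 0.06, adjusted p = 0.00759), Mrps28 (0.24 ± 0.07, adjusted p = 0.0208), Mrps15 (0.24 ± 0.07, adjusted p = 0.0158), Mrpl58 (0.24 ± 0.07, adjusted p = 0.0218), Mrpl18 (0.18 ± 0.06, adjusted p = 0.0322) and Mrpl51 (0.16 ± 0.05, adjusted p = 0.0301), and Mrpl3 had a lower one (-0.19 ± 0.06, adjusted p = 0.042). In males Mrps18c, a protein of the S18 family, was the only member called, while 8.33% of all genes were called, 1.13% higher and 7.21% lower. It had 99.2, 119 and 108 TPM in MHS males, against 128, 133 and 121 TPM in control males at day 28, and 131, 144 and 118 TPM in MHS_RR males, against 103, 120.03 and 104 TPM in control males at day 56 (0.49 ± 0.14, adjusted p = 0.0321). The MHS libraries lay below their controls, and those of MHS_RR overlapped theirs. The control libraries of day 56 also lay below those of day 28, a difference that was not called, and it enters this value. Set directly against MHS males, MHS_RR males gave no call for Mrps18c. In females limma called 0 members, against 2.46% of all genes (0.383% higher and 2.08% lower). An unadjusted p under 0.05 was found for 12 members and for 2225 of all 13058 genes. Of the members Mrpl57 (-0.35 ± 0.10, adjusted p = 0.0747) was lowest in p. The median in the mean of the sexes was 0.10 over members and -0.10 over all genes, and 61 members were above 0. Median-of-ratios scaling brought the median of all genes to 0.01 and called 23 members higher and 0 lower (6.29% and 8.58% of all genes), so the call of Mrpl3 rests on the scaling. Mrpl23, Mrpl58, Mrps15, Mrps28 and Mrps35 remained called under every omission of 1 library, with 5 to 16 calls in all (5 without female MHS replicate 2, 6 without male control day 28 replicate 2, male MHS_RR replicate 2, male MHS replicate 3 or female control day 56 replicate 3, and 7 without female MHS_RR replicate 2 or male control day 56 replicate 1), and the call of Mrps18c in males was among 0 to 4 calls.

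MHS_RR hearts were also set directly against MHS hearts, a comparison that shares its libraries with those above and in which day and condition cannot be told apart. In males 14 members were called, all higher in MHS_RR, while 19.6% of all genes were called, 3.38% higher and 16.2% lower. Abundant members stood among them. Mrpl42 had 1099.7, 1186 and 1108 TPM in MHS_RR males, against 1031, 946 and 1015 TPM in MHS males (0.18 ± 0.06, adjusted p = 0.027). Mrpl30 had 459.96, 482 and 448 TPM, against 387, 388 and 381 TPM (0.26 ± 0.06, adjusted p = 0.00437), and was the only one called under every omission of 1 library. Mrpl14 had 206, 205 and 210.2 TPM, against 174, 161 and 150.2 TPM (0.36 ± 0.09, adjusted p = 0.00857). In these 3 genes the groups did not overlap. Mrps15 had 132, 135 and 132 TPM in MHS_RR males, against 115, 107 and 113 TPM in MHS males (0.25 ± 0.07, adjusted p = 0.0118), also apart. The others were Mrpl46 (0.29), Mrps24 (0.28), Mrps28 (0.27), Mrpl58 (0.27), Mrpl23 (0.27), Mrps21 (0.26), Mrps35 (0.24), Mrpl2 (0.20), Mrpl4 (0.19) and Mrps30 (0.18), with adjusted p between 0.00677 and 0.045. Without male MHS_RR replicate 2 the count was 2, and without male MHS replicate 2 or 3 it was 8. Under the time and treatment tags, which put the libraries titled control at day 56 in the place of MHS, it was 0.

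In females 7 members were called, all higher, while 11.5% of all genes were called, 1.75% higher and 9.8% lower. Mrps15 had 120.3, 135 and 133 TPM in MHS_RR females, against 114, 102 and 105 TPM in MHS females (0.27 ± 0.07, adjusted p = 0.0124), with no overlap. Mrps31 (0.23 ± 0.06, adjusted p = 0.0152), Mrps35 (0.22 ± 0.06, adjusted p = 0.0219), Mrpl42 (0.19 ± 0.06, adjusted p = 0.0343), Mrpl45 (0.26 ± 0.08, adjusted p = 0.0386), Mrpl49 (0.18 ± 0.06, adjusted p = 0.0429) and Mrpl30 (0.19 ± 0.06, adjusted p = 0.0431) followed, and Mrps22 was not called (0.27 ± 0.09, adjusted p = 0.0556). Shared with males were Mrpl30, Mrpl42, Mrps15 and Mrps35, 4 of 7 in females and 4 of 14 in males. None of the 7 remained called under every omission, and the count fell to 0 without female MHS_RR replicate 2 or female MHS replicate 2, to 1 without MHS_RR replicate 3 and to 2 without MHS replicate 3. The median in males was 0.11 over members and -0.11 over all genes, and in females 0.08 and -0.10.

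Control hearts were compared by sex and by day. Between female and male controls, over both days, limma called 0 members, against 1.23% of all genes (0.796% higher and 0.437% lower). At an unadjusted p under 0.05 were 15 members and 2406 of all 13058 genes. For 65 of the 78 members the difference was below 0, with a median of -0.06, against 0.07 over all genes. Mrps23 (-0.14 ± 0.04, adjusted p = 0.082), Mrpl55 (-0.14 ± 0.04, adjusted p = 0.0943) and Mrpl34 (-0.19 ± 0.06, adjusted p = 0.108) had the smallest p. Weighting libraries gave 10 calls, the time and treatment tags 1 and leaving out male control day 28 replicate 3 gave 5, all lower in females. The share of all genes called in these fits is not given, so the counts are not read as particular to the members. Between control hearts at day 56 and at day 28 limma called 0 members in either sex and 0% of all genes. At an unadjusted p under 0.05 in males were 2 members (Mrps18c -0.22 and Mrps18b 0.14) and 391 of all 13058 genes. In females there were 7 members, including Mrps34 (-0.22), Mrpl57 (0.25) and Mrps18b (0.18), and 500 of all 13058 genes. Under the time and treatment tags, which exchange the day 56 control libraries with those titled MHS, 6 members were called in males and 5 in females. That comparison is the one titled MHS against control at day 28, where 10.2% of all genes were called in males and 5.76% in females.

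Genes of the wider machinery of mitochondrial translation were followed from lists, in the mean of the sexes. Against 11.6% of all genes higher and 6.24% lower under MHS, and 2.11% and 15.5% in MHS_RR hearts, several of their counts lie near the background, and nothing particular to a list is read from them. Under MHS 0 of 16 translation factors were higher and 2 lower, the initiation factor Mtif3 (-0.19 ± 0.05, adjusted p = 0.00623) and the formyltransferase Mtfmt, which prepares the initiator tRNA (-0.21 ± 0.07, adjusted p = 0.0346). Of 24 genes of ribosome assembly and rRNA modification 3 were lower, Rbfa (-0.22 ± 0.06, adjusted p = 0.0131), the methyltransferase Mettl15 (-0.29 ± 0.09, adjusted p = 0.0351) and the pseudouridine synthase Rpusd4 (-0.28 ± 0.07, adjusted p = 0.0101). Of 19 mitochondrial aminoacyl-tRNA synthetases 3 were lower, Cars2, Hars2 and Pars2, for which the log2 fold changes were -0.20, -0.17 and -0.28. Hsd17b10, a subunit of mitochondrial RNase P, was the only 1 of 23 RNA-handling genes that was called and was lower (-0.31 ± 0.04, adjusted p = 4.69e-05). Of 16 nuclear regulators Myc was higher (0.49 ± 0.17, adjusted p = 0.047), and of 9 linked proteases and chaperones Trap1 (-0.21 ± 0.04, adjusted p = 0.000927) and Spg7 (-0.15 ± 0.04, adjusted p = 0.0118), a protease that matures Mrpl32, were lower. None of the 5 subunits with other symbols that are not members was called.

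In MHS_RR hearts the subunit gene Chchd1 was higher (0.18 ± 0.05, adjusted p = 0.0232), as were 3 assembly genes, the rRNA methyltransferases Mrm2 (0.25 ± 0.06, adjusted p = 0.00847) and Mrm1 (0.24 ± 0.07, adjusted p = 0.0217) and Ngrn (0.19 ± 0.06, adjusted p = 0.0343). The elongation factor Gfm1 was lower (-0.11 ± 0.04, adjusted p = 0.0449), as were the synthetases Wars2, Lars2 and Iars2 (-0.25, -0.20 and -0.20). Of the RNA and DNA handling genes Ssbp1, the single-strand binding protein, was higher (0.24 ± 0.07, adjusted p = 0.0276), and the DNA polymerase Polg (-0.25 ± 0.05, adjusted p = 0.00216) and Elac2, which trims tRNA ends (-0.15 ± 0.05, adjusted p = 0.03), were lower. Of 16 regulators 4 were lower, Myc (-0.63 ± 0.17, adjusted p = 0.0148), the coactivators Ppargc1b (-0.43 ± 0.12, adjusted p = 0.019) and Pprc1 (-0.39 ± 0.08, adjusted p = 0.00315), and Yy1 (-0.22 ± 0.07, adjusted p = 0.0289). The chaperonin Hspe1 was higher (0.18 ± 0.06, adjusted p = 0.038) and Spg7 lower (-0.13 ± 0.04, adjusted p = 0.0233). The difference of the effects was called for Hsd17b10 (0.40 ± 0.06, adjusted p = 0.000285), Mrm2 (0.37 ± 0.08, adjusted p = 0.00469), Mtif3 (0.22 ± 0.07, adjusted p = 0.025) and Trap1 (0.16 ± 0.06, adjusted p = 0.0471), all higher, and for Myc (-1.13 ± 0.24, adjusted p = 0.00288), Pprc1 (-0.39 ± 0.11, adjusted p = 0.0181) and Elac2 (-0.23 ± 0.06, adjusted p = 0.0196), all lower.

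**Figure D4:**
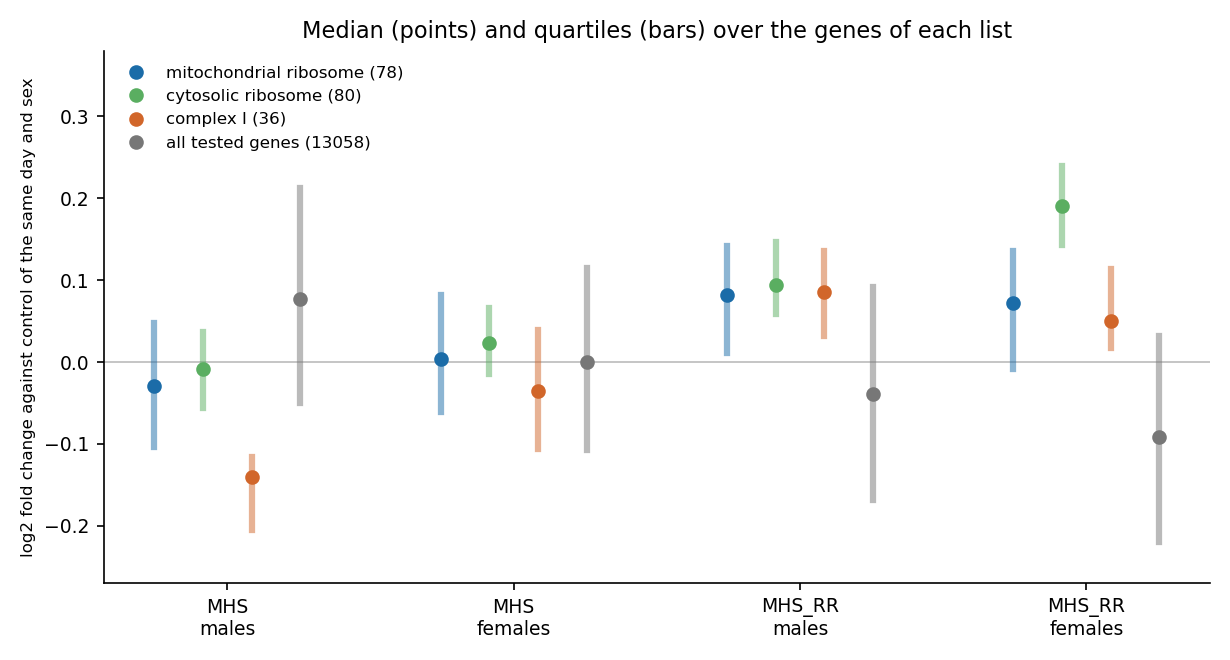
Median (points) and quartiles (bars) of the log2 fold change against the control of the same day and sex for the 78 members, 80 cytosolic ribosomal protein genes, 36 complex I genes and all 13058 tested genes. In MHS males the medians were -0.03 for members and -0.14 for complex I, and in MHS_RR females 0.07 for members and 0.19 for cytosolic ribosomal proteins. The member median in MHS_RR females was lower after GC and length correction.

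Other gene sets give these values a setting. Complex I of the respiratory chain holds proteins made by the mitochondrial ribosome beside nuclear-encoded ones, and 36 of its nuclear-encoded subunits were measured. Under MHS 0 were higher and 9 lower in males (median -0.14), 0 and 1 in females (-0.03), and 0 and 11 in the mean of the sexes (-0.09), while members had 7 higher and 9 lower there. In MHS_RR hearts 5 complex I genes were higher and 0 lower in the mean of the sexes (median 0.08). The difference of the effects was called for 13 of them, all higher, with a median of 0.16 against 0.10 over members. Of 80 cytosolic ribosomal proteins 2 were higher and 1 lower under MHS in the mean of the sexes. In MHS_RR hearts 15 were higher in females (median 0.19) and 30 in the mean of the sexes (0.14), with 0 lower, while of the members 13 were higher and 1 lower (0.07). These counts are descriptions, and no test between the lists was made. In the comparisons of MHS and of MHS_RR with control, the largest log2 fold change of any member in either direction was 0.41 and none passed 1.5-fold, 26 members were called at least once there, and 42 were called in none of the 16 comparisons made. No share over all genes was taken for these last counts, so they are not read as particular to the members.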

How the data were processed

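The deposited table held 1 TPM column for each of the 24 libraries. Per the submitters' processing notes the tools were STAR and Salmon with mm9, versions not given in the sources used here, and the authors' TPM values hold no read counts, so the depth and the counting error of each library are unknown. Libraries came from a stranded mRNA kit, from free-wall left ventricle RNA extracted with TRIzol.

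Genes with at least 1 TPM in at least 3 libraries were kept (13058 genes). Values were taken as log2(TPM + 1), on which fold changes of low genes are understated, and limma 3.58.1 under R 4.3.3 fitted 8 group means, moderated by eBayes with trend (16 residual degrees of freedom). Each of 16 two-sided comparisons was adjusted by Benjamini-Hochberg over all genes and called under 0.05. Errors are SD of TPM (n = 3) and standard errors of fold changes. Words of direction are used for called genes. The fit was tested on simulated data for MHS males (13058 genes), where 48% of genes changed by 0.5 and 95% of those changed by 1 on the log2 scale were recovered and 5.92% of the calls were false. The noise was drawn separately for each gene and library, without shifts shared by genes. The largest member change against control was 0.41, so these shares do not carry over directly to the members.

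Members and lists were chosen with earlier results of these data known. Named were all called members, up to 15 per comparison by size of change, members of smallest p up to 8 where fewer than 8 were called, the 5 highest members, those of the listed sites, and up to 4 called genes per related list. Mrpl13, sixteenth in the mean MHS effect, was named because it was called in females. Transcript length and GC content by symbol came from GENCODE M21, another build, for 99.3% of tested genes and all members, and promoters from RefSeq (GRCm38.p6). Alternatives were the pseudocount, the filter, scaling, GC and length correction, replicate block, library weights, an untrended robust fit, the time and treatment tags, the compared groups alone and omission of each library.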

Additional observations from a re-analysis of the deposited data

How the results depend on the processing

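Pseudocounts of 0.1 and 5 and the absence of a filter on low values kept every count of called members within 1.5 times, in all 16 comparisons. With TPM of at least 5 in 3 libraries the male difference of effects had 2 calls in place of 1. Omitting each library in turn gave 0 to 7 called members under MHS in males, 1 to 5 in females and 12 to 17 in their mean, 0 to 0 under MHS_RR in males, 1 to 9 in females and 6 to 18 in their mean, 0 to 4 for the male, 0 to 0 for the female and 5 to 16 for the mean difference of effects, 2 to 16 and 0 to 9 for MHS_RR against MHS in males and females, and 0 to 5 for the sexes of controls. The member median then ran from -0.07 to -0.01, from -0.02 to 0.02 and from -0.03 to 0.00 under MHS in males, females and their mean, and from 0.05 to 0.10, from 0.04 to 0.10 and from 0.05 to 0.08 under MHS_RR.

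Median-of-ratios scaling gave 1 call under MHS in females, 2 for the male and 23 for the mean difference of effects, and 34 and 17 for MHS_RR against MHS in males and females. It moved the member median to -0.10 under MHS in males and to 0.15, 0.18 and 0.15 under MHS_RR in males, females and their mean. Quantile scaling gave 12 and 3 calls under MHS in males and females, 5, 1 and 21 for the male, female and mean difference of effects, and 27 and 17 for MHS_RR against MHS, with medians of -0.10 and -0.065 under MHS in males and the mean and 0.11 under MHS_RR in females. GC and length correction gave 3 calls under MHS in females, 3 and 7 under MHS_RR in females and the mean, 6 for the mean difference of effects, and 6 and 4 for MHS_RR against MHS, and the female MHS_RR median was 0.012. Library weights gave 11 and 9 calls under MHS in males and females, 20, 10 and 24 under MHS_RR, 10, 6 and 23 for the differences of effects, 13 for MHS_RR against MHS in females and 10 for the sexes of controls. The untrended robust fit gave 2 calls under MHS in females and 4 for MHS_RR against MHS in females. The compared groups alone, with fewer residual degrees of freedom, gave 0 and 0 under MHS in males and females, 1 and 8 under MHS_RR in females and the mean, 0 for the male difference, and 5 and 1 for MHS_RR against MHS. Without the 3 libraries most related to GC content and length, an alternative chosen after seeing the data, there were 3 calls under MHS in males, 3 under MHS_RR in the mean, 0 and 5 for the male and mean difference of effects, and 3 for MHS_RR against MHS in males. The cause of these shifts was not tested. Counts in this section stand without the share of all tested genes called in the same fit. They describe how far the calls depend on the fit and are not read as particular to the members.

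Pairing by replicate number was examined only between treated and control libraries of the same sex and day. A batch shared across days or sexes was not examined. Of 12 correlations between the deviations of same-numbered libraries from their group means, from -0.28 to 0.26, 1 was over 0.1. A replicate block gave 10 calls under MHS in males, 2 under MHS_RR in males and 4 for the male difference of effects, and a block with GC and length correction 12 under MHS in males, 2 for the male difference and a median of 0.012 under MHS_RR in females.

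Groups from the time and treatment tags gave 0, 0 and 0 calls under MHS in males, females and the mean, 14 and 30 under MHS_RR in males and the mean, 0 for MHS_RR against MHS in males, 1 for the sexes of controls and 6 and 5 for day 56 against day 28 controls, with medians of 0.011 under MHS in males and 0.11 under MHS_RR in the mean. Signs turned there for Mrpl39 (0.014 in males, 0.054 in females, 0.034 in the mean), Mrps15 (0.018, 0.0199 and 0.019), Mrps35 (0.015 in males), and in the mean for Mrpl13 (-0.0202), Mrps30 (0.065), Mrps31 (0.022) and Mrps34 (-0.091) under MHS, for Mrpl54 (-0.00021) under MHS_RR, and for Mrps15 (-0.0078), Mrps30 (-0.013) and Mrpl49 (-0.0010) in MHS_RR against MHS. These tags exchange the libraries titled MHS with those titled control at day 56, so these values compare other libraries than the titles name.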
